A study of Mus musculus with 15 samples.

Results

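The cytosolic ribosomal protein genes analysed here were 5 of the 12089 transcripts measured by RNA-seq in mouse dental mesenchymal cells (mDMCs). Members were transcripts whose gene is annotated as protein-coding and carries a name of the Rpl or Rps series followed by a number, or is Rplp0, Rplp1, Rplp2 or Rpsa; the ribosomal protein kinases (Rps6k genes) were excluded. The annotation holds 83 such genes, and the 5 with a transcript in the table were Rplp0, Rplp1, Rplp2, Rpl29 and Rpsa. The other 78 were not analysed here, so the values below describe these 5 genes and not the ribosome as a whole. mDMCs are single cells obtained with dispase and trypsin from the mandibular first molar mesenchyme of E14.5 ICR mice, with no transgene or mutation named for any group, and the study followed their transcriptome while they were cultured in medium with fetal bovine serum. There were 3 libraries of freshly isolated mDMCs (0 h), 2 of mDMCs cultured for 12 h, 3 each for 24 h, 36 h and 48 h, and 1 of dental mesenchymal tissue that had not been dissociated. The labels number the replicates but do not say whether they came from separate litters or cultures, so the p-values measure only the spread between these libraries.

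The ribosome consists of a small and a large subunit, each made of ribosomal RNA and of many proteins that cells produce in matched amounts. Rplp0, Rplp1 and Rplp2 encode the acidic P proteins of the stalk of the large subunit, in which P0 anchors dimers of P1 and P2 and the stalk recruits the elongation factors to the ribosome. Rpl29 encodes another protein of the large subunit, and Rpsa encodes a protein of the small subunit that was first described as a laminin receptor. Mature ribosomal protein mRNAs of vertebrates typically begin with a C that is followed by a run of pyrimidines, the terminal oligopyrimidine (TOP) motif, through which mTORC1 signalling controls their translation according to growth conditions.

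The annotated 5′ ends are shown because these genes are known for this motif and were measured over a change of growth conditions. RefSeq promoter sequences (GRCm38.p6) were at hand for 3 of the 5 members, and each line gives the 40 bases before and the 20 bases from the annotated start on the plus strand, with the first C followed by at least 4 further pyrimidines, searched from the start onwards, in capitals. The windows lie at chr5:115559427-115559486 for Rplp0, chr7:141447611-141447670 for Rplp2 and chr9:120127726-120127785 for Rpsa.
Rplp0: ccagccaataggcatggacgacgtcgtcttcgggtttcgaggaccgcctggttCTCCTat
Rplp2: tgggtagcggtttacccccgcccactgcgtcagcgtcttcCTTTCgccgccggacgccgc
Rpsa: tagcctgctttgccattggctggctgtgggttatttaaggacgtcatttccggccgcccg
Only the Rplp2 entry had the run exactly at its annotated start. Among all 32851 promoter entries, 2.51% had such a run at the start, and among the 76 entries whose names fit the ribosomal protein pattern 18.4% did. The motif was searched on the transcribed strand only, and a missing match says only that these letters are not in this window.

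The 5′ ends of the transcripts that the table lists (GENCODE, GRCm38) are given as their first 20 bases, with the same run in capitals.
Rplp0: ggaccgcctggttCTCCTat
Rplp1: gatCTTTTCCTCagctgccg
Rplp2: gggagctgtggagccgagta
Rpl29: CTCTTCCggtctccggcgct
Rpsa: gaggCTTTTTCCggagcgga
Rpl29 had the run at its first base, Rplp1 from base 4, Rpsa from base 5 and Rplp0 from base 14. At the first base 1 of the 5 transcripts held it, beside 2.29% of the 10529 protein-coding transcripts of the table. Anywhere within these 20 bases 4 of the 5 held it, beside 24.6%. The listed Rplp2 transcript begins at position 141447370 on chromosome 7, upstream of the RefSeq start at 141447651, and held no such run. Scores are listed under these transcript identifiers, and whether they also hold reads of other transcripts of the gene was not tested.

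The values of the table are scores, whole numbers that the authors had normalized and that are not read counts. All 15 libraries shared a median of 721 and a largest score of 127101, which 10 transcripts held in each library, and library totals differed by at most 0.039%, so sequencing depth is unknown and a change in total RNA per cell cannot be seen. High scores moved in coarse steps, since each library was fitted to a common set of values: Rplp0 took only 5 different scores over the 15 libraries and Rpsa 7. A zero spread between replicates of such a gene therefore marks an equal score and not an exact measurement. The mesenchymal identity of the samples was checked with 10 markers, among them Msx1, Pax9 and Barx1, all of which had a transcript; their summed score was 82908 to 98231 at 0 h and 46254 to 95444 in culture. Prrx1 made up much of that sum, with 40667 to 50479 at 0 h and 28843 to 70675 in culture. Of the 10 markers, 7 were below every 0 h score in all 11 cultured libraries, among them Pax9 with 3850 to 5959 at 0 h and 619 to 2177 in culture. The other 3 were Prrx1, Dlx1 and Dlx2. Dlx1 was at 3770 to 4750 at 0 h and 1995 to 5769 in culture, and Dlx2 at 324 to 751 and 385 to 1255, both with their 12 h libraries above all at 0 h.

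Other cell types moved with the comparison of culture and 0 h. Summed over all 5 blood markers, scores were 67343 to 116003 at 0 h, 114365 in the tissue and 241 to 824 in the cultured libraries, and 4 of 4 endothelial markers summed to 6179 to 7310 at 0 h and 338 to 792 in culture. Scores of 3 of 4 macrophage markers summed to 495 to 735 at 0 h and 117 to 445 in culture. For 7 of 8 epithelial markers the sum was 13358 in 0 h replicate 1, which stood apart from replicates 2 and 3 at 1450 and 1771, and both 12 h libraries, at 2289 and 2683, lay above these; it was 1004 to 2097 for 24 h, 87 to 600 for 36 h and 357 to 1205 for 48 h. Of 5 neural markers, 2 had a transcript (Tubb3 and Stmn2), and their sum went the other way, with 121 to 306 at 0 h, 1215 to 1368 for 12 h, 1033 to 2511 for 24 h, 508 to 534 for 36 h and 473 to 1797 for 48 h. The 2 of 4 muscle markers with a transcript summed to 96 to 571 at 0 h and 207 to 2025 in culture. Each comparison of a ribosomal protein gene with 0 h below is also one between samples that differ in these cells, and their part in it was not tested. In such bulk samples fewer cells of a type and less RNA per cell cannot be told apart.

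Rplp0, the stalk anchor on chromosome 5 (115559467 to 115563727, 7 exons), had the lowest scores after 12 h of culture. Its scores were 70714, 70714 and 127101 at 0 h, 31886 and 36428 after 12 h, 50508 in all 3 libraries after 24 h, 50508, 50508 and 36428 after 36 h, and 70714 in all 3 libraries after 48 h. The libraries after 12, 24 and 36 h all lay below those at 0 h, whereas the scores after 48 h equalled the lower ones at 0 h. In the limma fit over all transcripts, the log2 change from 0 h was −1.33 ± 0.23 (SE) after 12 h (adjusted p = 0.000312), −0.77 ± 0.21 after 24 h (adjusted p = 0.00543) and −0.92 ± 0.21 after 36 h (adjusted p = 0.00145). At 48 h it was −0.28 ± 0.21 and did not pass the test (adjusted p = 0.24). The largest score of the table, which cannot rise further, was reached by Rplp0 at 0 h replicate 3, so that score is a ceiling. Without that library the change was −1.05 after 12 h, −0.49 after 24 h, −0.64 after 36 h and 0.0 after 48 h, and the same calls were made.

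**Figure D1:**
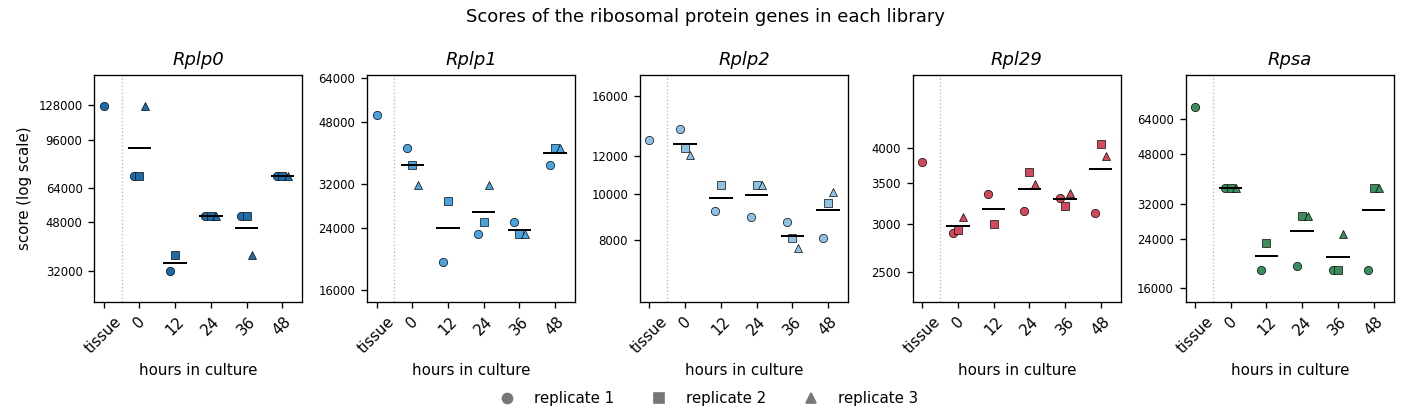
Scores of the 5 ribosomal protein genes (vertical axes, log scale, a different range in each panel) in the tissue library and in mDMCs at 0, 12, 24, 36 and 48 h (horizontal axes); each symbol is 1 library, its shape gives the replicate number and horizontal lines are means. Rplp0 and Rplp1 had their lowest scores after 12 h, Rpsa its lowest score of 18563 in libraries at 12, 36 and 48 h, Rplp2 its lowest score of 7718 after 36 h, and Rpl29 its highest score of 4055 after 48 h.

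Rplp1, a P protein that pairs with Rplp2 on the stalk, is on chromosome 9 (61913284 to 61914542, minus strand, 3 exons). It scored 40642, 36379 and 31803 at 0 h, 19236 and 28783 after 12 h, 23202, 25022 and 31803 after 24 h, 25022, 23202 and 23202 after 36 h, and 36379, 40642 and 40642 after 48 h. Scores at 12 and 36 h lay below all scores at 0 h, the highest after 24 h equalled the lowest at 0 h, and those after 48 h overlapped them. The log2 change from 0 h was −0.62 ± 0.18 after 12 h (adjusted p = 0.00997), −0.45 ± 0.16 after 24 h (adjusted p = 0.0247), −0.60 ± 0.16 after 36 h (adjusted p = 0.00461) and 0.12 ± 0.16 after 48 h (adjusted p = 0.524). Without 12 h replicate 1 the 12 h change was −0.33, and the 24 h call was lost in 4 of 14 fits with 1 library left out. A second gene, Gm10073 on chromosome 8, carries a near-identical copy of this transcript, and reads could be split between them. Its scores were 198 to 327 at 0 h and 268 to 507 in culture, far below those of Rplp1 in every library.

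Rplp2, the partner P protein on chromosome 7 (141447370 to 141451585, 5 exons), was the only member called lower than at 0 h at all 4 culture times. It scored 13663, 12502 and 12073 at 0 h, 9197 and 10443 after 12 h, 8945, 10443 and 10443 after 24 h, 8736, 8093 and 7718 after 36 h, and 8093, 9597 and 10090 after 48 h. All 11 cultured libraries lay below the 3 at 0 h. Rplp2 fell by 0.38 ± 0.12 on the log2 scale after 12 h (adjusted p = 0.0143), by 0.36 ± 0.10 after 24 h (adjusted p = 0.0084), by 0.64 ± 0.10 after 36 h (adjusted p = 0.000122) and by 0.47 ± 0.10 after 48 h (adjusted p = 0.00144).

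The P proteins work as one complex, so the ratios of their scores were followed within each library. The log2 ratio of Rplp1 over Rplp2 was 1.5 ± 0.09 (SD, n = 3) at 0 h, 1.26 ± 0.28 (n = 2) after 12 h, 1.41 ± 0.18 (n = 3) after 24 h, 1.54 ± 0.04 (n = 3) after 36 h and 2.09 ± 0.08 (n = 3) after 48 h. The 3 libraries after 48 h, at 2.01 to 2.17, lay above all other mDMC libraries, whose highest ratio was 1.61, and the tissue had 1.96. The log2 ratio of Rplp0 over Rplp2 was 2.37 and 2.5 in replicates 1 and 2 at 0 h, 1.79 and 1.80 for 12 h, 2.27 to 2.50 for 24 h, 2.24 to 2.64 for 36 h and 2.81 to 3.13 for 48 h. That of Rplp0 over Rplp1 was 0.80 and 0.96 in replicates 1 and 2 at 0 h, 0.34 and 0.73 for 12 h, 0.67 to 1.12 for 24 h, 0.65 to 1.12 for 36 h and 0.80 to 0.96 for 48 h. In replicate 3 at 0 h, where Rplp0 sat at the ceiling, these ratios of 3.40 and 2.0 are lower bounds. The ratios were chosen after the values were seen, and their differences were not tested.

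Rpsa, the small-subunit protein, is on chromosome 9 (120127689 to 120132369, 7 exons). It scored 36428 in all 3 libraries at 0 h, 18563 and 23247 after 12 h, 19261, 28882 and 28882 after 24 h, 18563, 18563 and 25068 after 36 h, and 18563, 36428 and 36428 after 48 h. Every library after 12, 24 and 36 h was below the score at 0 h, and after 48 h only replicate 1 was. The log2 change from 0 h was −0.81 ± 0.27 after 12 h (adjusted p = 0.0226) and −0.83 ± 0.25 after 36 h (adjusted p = 0.00893), which were called. It was −0.53 ± 0.25 after 24 h (adjusted p = 0.0734) and −0.32 ± 0.25 after 48 h (adjusted p = 0.254), which were not. The 24 h change was called at the same size with the replicate block (adjusted p = 0.0247), in a fit of 0 and 24 h alone (0.0307) and without 48 h replicate 1 (0.0158), where 32.0%, 30.0% and 32.4% of all transcripts were called lower. It was −0.33 without 24 h replicate 1 (adjusted p = 0.269), and without 0 h replicate 3 it kept its size with an adjusted p of 0.122. The processed pseudogene Rpsa-ps10 on chromosome 3, whose sequence is 99.3% identical to the Rpsa mRNA, scored 15081 to 17348 at 0 h and 9588 to 15081 in culture but 361 in the tissue, where Rpsa itself had its highest score of 70714. Reads shared by gene and pseudogene could have been divided differently between libraries, which was not tested.

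Rpl29, a large-subunit protein with a gene on chromosome 9 (106429538 to 106431508, 4 exons), was the only member called lower at none of the culture times. It scored 2904, 2935 and 3086 at 0 h, 3355 and 3003 after 12 h, 3147, 3659 and 3485 after 24 h, 3312, 3214 and 3376 after 36 h, and 3129, 4055 and 3882 after 48 h. All libraries at 24, 36 and 48 h lay above those at 0 h, and those after 12 h overlapped them. The log2 change was 0.09 ± 0.11 after 12 h (adjusted p = 0.483), 0.20 ± 0.10 after 24 h (adjusted p = 0.0805) and 0.15 ± 0.10 after 36 h (adjusted p = 0.183), none of which passed, and Rpl29 rose by 0.30 ± 0.10 after 48 h (adjusted p = 0.0135). That call was lost when 48 h replicate 2 or replicate 3 was left out, with an adjusted p of up to 0.0671. Near copies of the whole transcript exist at 16 other genes of the annotation, 15 of them pseudogenes, and 0 of these genes have a transcript in the table. By comparison the Rplp0 pseudogene Gm8730, 98.7% identical to that mRNA, does have one, with scores of 1699 to 2080 at 0 h and 1401 to 5072 in culture. The 5072 was in 36 h replicate 3, beside 1632 and 1638 in the other 36 h libraries. In that replicate Rplp0 had its lowest 36 h score of 36428. Reads could have been divided between Rplp0 and Gm8730, which was not tested.

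**Figure D2:**
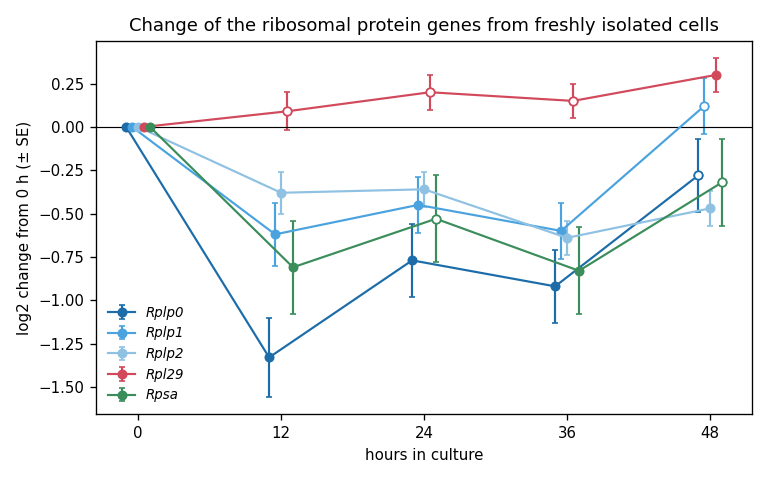
Log2 change of each ribosomal protein gene from 0 h (vertical axis) against hours in culture (horizontal axis); points are estimates of the limma fit, bars are standard errors, and filled points passed an adjusted p of 0.05. Rplp0, Rplp1, Rplp2 and Rpsa lay below 0 up to 36 h, with Rplp0 lowest at −1.33, while Rpl29 lay above 0 throughout and reached 0.30 after 48 h.

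Counted together, 0 members were higher and 4 were lower after 12 h than at 0 h, where 29.9% of all 12079 transcripts tested were higher and 28.3% lower. At 24 h the members gave 0 higher and 3 lower, beside 35.0% and 31.8% of all transcripts, and after 36 h 0 higher and 4 lower, beside 36.0% and 34.0%. At 48 h there was 1 higher and 1 lower, beside 37.1% and 34.0%. The median log2 change of the members was −0.62, −0.45, −0.64 and −0.28 at the 4 times, while the median over all transcripts tested was 0.018, 0.031, 0.016 and 0.031. These comparisons share the 3 libraries at 0 h. A large part of all transcripts changed from 0 h in either direction, so with 5 members the counts describe these genes only. Without 12 h replicate 1 the change was −0.33 for Rplp1, −0.29 for Rplp2 and −0.65 for Rpsa, with adjusted p of 0.175, 0.126 and 0.15, and that of Rplp0 was −1.24 and still called (adjusted p = 0.00546), while 23.3% of all transcripts were lower. That leaves a single library at 12 h, which is assumed to vary like the other groups.

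From one time point to the next no member passed the limma test after adjustment, and 1, 1 and 2 of the 5 had an unadjusted p below 0.05 between 12 and 24 h, 24 and 36 h, and 36 and 48 h. Between 12 and 24 h the member changes ran from 0.02 to 0.57 with a median of 0.17, and 4.59% of all transcripts were higher and 3.67% lower. Between 24 and 36 h they ran from −0.30 to −0.05 with a median of −0.16, and 10% and 9.64% of all transcripts were called. Between 36 and 48 h all 5 estimates were positive, from 0.15 for Rpl29 to 0.72 for Rplp1 with a median of 0.50, and 0.0% of all transcripts were called higher and 0.0248% lower. In that last interval Rplp1 scored 23202 to 25022 after 36 h and 36379 to 40642 after 48 h, and Rplp0 36428 to 50508 and 70714, without overlap. Their adjusted p-values were 0.124 and 0.214 and the unadjusted ones 0.000654 and 0.00876, in a comparison in which 1617 of all transcripts (773 higher, 844 lower) had an unadjusted p below 0.05. Fitted on the libraries at 36 and 48 h alone, Rplp1 passed with an adjusted p of 0.0411, as 0.0497% of all transcripts did as higher.

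The 48 h replicates did not hold together for these genes. Replicate 1 had the lowest score of the 3 in 4 of the 5 members, where it had the lowest in 38.3% of all transcripts. Its median log2 distance from the 36 h mean was −0.01 over the members, against 0.64 for each of the other replicates. Without it the change of Rpsa from 0 h to 48 h was 0.0, that of Rplp2 was −0.37 and still called (adjusted p = 0.00661), and that of Rpl29 was 0.42 (adjusted p = 0.000723), with 32.6% of all transcripts lower and 35.8% higher. Replicate 1 at 24 h was likewise the lowest in 4 of 5 members and in 40.3% of all transcripts. Without it the change of Rplp1 after 24 h was −0.36 and no longer called (adjusted p = 0.0911) and Rpl29 was called (0.26, adjusted p = 0.0444), with 30.1% of all transcripts lower and 33.5% higher. The neural markers split the libraries likewise, with Tubb3 at 301 in 48 h replicate 1 and at 794 and 1005 in the others, and Stmn2 at 172, 680 and 792. At 24 h they were also lowest in replicate 1, with Tubb3 at 712, 1118 and 1673 and Stmn2 at 321, 543 and 838. Epithelial sums were lowest in replicate 1 too, with 357, 1205 and 650 over the 48 h libraries and 1004, 2097 and 1083 over those for 24 h. Muscle sums were highest in it, with 938, 623 and 331 and with 1548, 917 and 207. The part of these markers in the split of the members was not tested.

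Ribosomal proteins whose genes carry other names gave a further view. Fau encodes a ubiquitin-like protein fused to the small-subunit protein eS30 and scored 2090 to 2267 at 0 h, 2573 and 2861 after 12 h, 2673 to 3240 after 24 h, 1989 to 2204 after 36 h and 2015 to 3261 after 48 h. It was higher after 24 h than at 0 h (0.42 ± 0.14, adjusted p = 0.0188) and lower after 36 h than after 24 h (−0.47 ± 0.14, adjusted p = 0.0364). Rack1, a scaffold protein bound to the small subunit, is listed by a transcript with a retained intron; it scored 36325 to 40594 at 0 h and was lower after 24 h (−0.42 ± 0.16, adjusted p = 0.034) and 36 h (−0.47 ± 0.16, adjusted p = 0.0193). Neither Fau nor Rack1 was called at 12 or 48 h, and after 24 h Fau was higher and Rack1 lower. Rpl6l, which fits the name pattern but is annotated as a processed pseudogene and is 98.7% identical to the Rpl6 mRNA, scored 25022 to 28783 at 0 h and 15601 in all 3 libraries after 36 h (−0.82 ± 0.21, adjusted p = 0.00316).

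**Figure D3:**
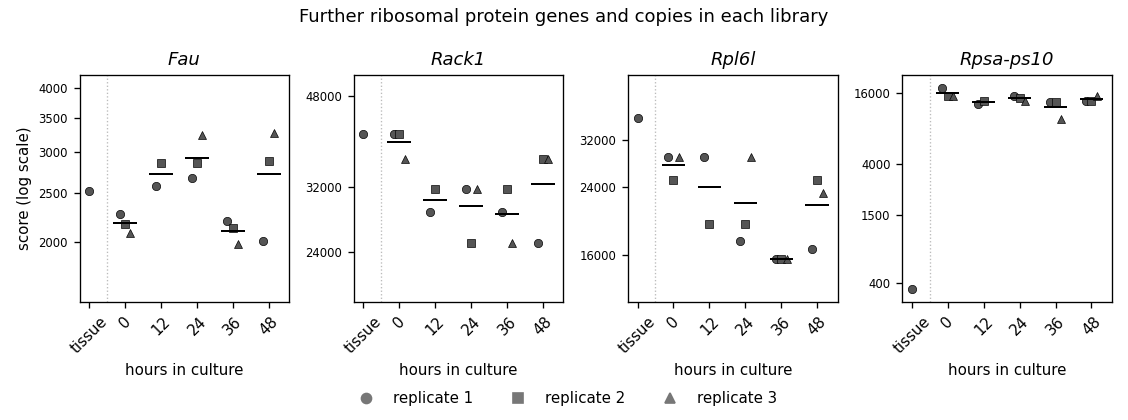
Scores of Fau, Rack1 and the pseudogenes Rpl6l and Rpsa-ps10 (vertical axes, log scale, a different range in each panel) in the tissue library and in mDMCs at each hour of culture (horizontal axes); each symbol is 1 library, its shape gives the replicate number and lines are means. The 36 h scores of Rpl6l, at 15601, were below those at 0 h, and Rpsa-ps10 was at 361 in the tissue alone.

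With Rpl6l, Rpsa-ps10 and Gm10073 included, 21 transcripts of other genes, 15 of them pseudogenes, were at least 95.6% identical over at least 80% of their length to the mRNA of a ribosomal protein gene. Their scores may hold reads of the parent genes, most of which are among the genes not analysed here, and which gene the reads came from cannot be read from the table. At 12 h 3 were higher and 5 lower than at 0 h (14.3% and 23.8%, beside 29.9% and 28.3% of all transcripts), and after 24 h 4 and 5 (19.0% and 23.8%, beside 35.0% and 31.8%). For 36 h the counts were 3 and 11 (14.3% and 52.4%, beside 36.0% and 34.0%) and for 48 h 4 and 3 (19.0% and 14.3%, beside 37.1% and 34.0%). The medians were −0.18, −0.14, −0.28 and −0.04. Between 24 and 36 h 5 were lower and 0 higher (23.8% and 0.0%, beside 9.64% and 10% of all transcripts). The copies did not move alike. Gm15013, nearly identical to Rps4x, scored 40654 to 50457 at 0 h and 16511 to 19244 after 12 h (−1.40 ± 0.17, adjusted p = 2.17e-05) and was still 1.26 ± 0.16 below 0 h on the log2 scale after 48 h (adjusted p = 1.03e-05). Gm9493, a copy of Rps7, changed by −1.01 ± 0.16 after 48 h (adjusted p = 0.000115). Copies of Rps2 went the other way, with 1.19 ± 0.11 for Gm6576 (adjusted p = 9.34e-07) and 0.61 ± 0.11 for Gm5786 (adjusted p = 0.000344). These 4 copies were chosen after their values were seen. As with the members, 48 h replicate 1 was the lowest of the 3 libraries in 16 of the 21 (76.2%), and so was 24 h replicate 1 among the 24 h libraries.

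Summed over the 5 members, the scores made up 0.833% ± 0.133 (SD, n = 3) of the library total at 0 h, 0.431% ± 0.065 (n = 2) after 12 h, 0.544% ± 0.048 (n = 3) after 24 h, 0.477% ± 0.025 (n = 3) after 36 h and 0.718% ± 0.067 (n = 3) after 48 h. The shares after 12, 24 and 36 h, at most 0.586%, lay below every share at 0 h, of which the lowest was 0.744%. At 48 h they were 0.641% to 0.757% and overlapped. The tissue library had the highest share, 1.241%. Rplp0 supplied much of the sum, and without it the means were 0.414%, 0.271%, 0.308%, 0.262% and 0.387% in the order of the times and 0.646% in the tissue.

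In the undissociated tissue, 3 of the 5 members scored above all 3 libraries of freshly isolated mDMCs, and none scored below. Rpsa was at 70714 in the tissue and 36428 at 0 h, Rplp1 at 50435 against 31803 to 40642, and Rpl29 at 3797 against 2904 to 3086. Rplp0, at 127101, held the largest score of the table in the tissue as in 0 h replicate 3, and Rplp2, at 12961, lay within its range at 0 h. The median log2 difference of the members between the tissue and the 0 h mean was 0.48, beside −0.01 over all transcripts. Of the 21 near-identical copies 17 (81.0%) scored above all 0 h libraries, where 29.7% of all transcripts did. The tissue is a single library, so these differences have no replicate check. Marker sums also differed, with muscle at 2411 in the tissue and 96 to 571 at 0 h, macrophages at 1141 and 495 to 735, endothelium at 8168 and 6179 to 7310, and mesenchyme at 68717 and 82908 to 98231, and their part was not tested.

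Genes that build ribosomes are given beside the members as a description, with no test of the difference between the lists. Of 68 listed ribosome biogenesis factors with a transcript, 55 were higher and 0 lower after 12 h, 58 and 0 after 24 h, 47 and 2 after 36 h, and 54 and 0 after 48 h, with medians of 0.70, 0.77, 0.46 and 0.60. These are 80.9%, 85.3%, 69.1% and 79.4% higher, beside 29.9%, 35.0%, 36.0% and 37.1% of all transcripts. With a fold change above 2 and an unadjusted p below 0.05 required instead, 13 were higher for 12 h and 12 for 48 h (19.1% and 17.6%, beside 12.2% and 16.2% of all transcripts). Utp20, a factor of small-subunit processing, rose by 1.74 ± 0.12 after 48 h (adjusted p = 5.25e-08), Sbds, which acts in the release of a late factor from the large subunit, by 1.54 ± 0.11 (adjusted p = 1.07e-07), and Rrp9, a component of the complex on the nascent ribosomal RNA, by 1.36 ± 0.10 (adjusted p = 1.2e-07). In the same comparison the member changes ran from −0.47 to 0.30. Between 24 and 36 h, 30 of the 68 fell and 0 rose (44.1% and 0.0%, beside 9.64% and 10% of all transcripts).

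**Figure D4:**
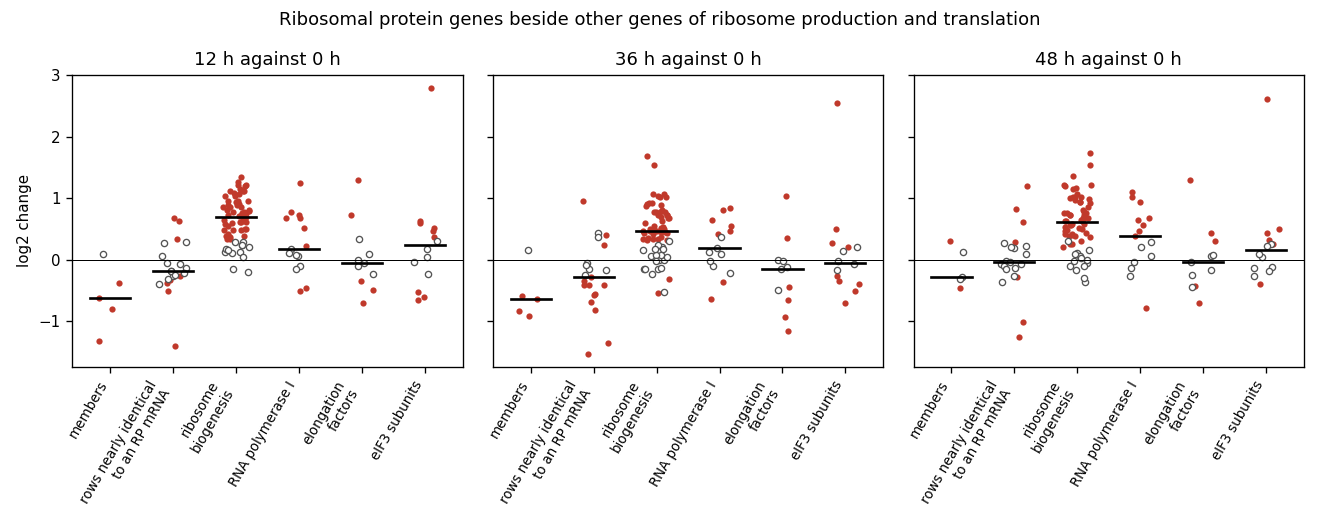
Log2 change from 0 h (vertical axis) at 12, 36 and 48 h of culture (panels) for the 5 members, the 21 transcripts nearly identical to a ribosomal protein (RP) mRNA, and the transcripts of 4 lists of translation genes (horizontal axis); each dot is 1 transcript, filled where the adjusted p was below 0.05, and lines are medians. The members and the near-identical copies had medians of −0.62 and −0.18 after 12 h, while ribosome biogenesis had 0.70.

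RNA polymerase I and its factors, which transcribe ribosomal RNA genes, gave 7 higher and 2 lower of 15 after 12 h and 8 and 1 after 48 h. All counts of this kind stand beside 29.9% of all transcripts higher and 28.3% lower for 12 h, and 37.1% and 34.0% for 48 h; here 46.7% and 13.3%, and 53.3% and 6.67%, were called. At 48 h the subunit Polr1e rose by 1.01 ± 0.11 (adjusted p = 3.62e-06) and the factor Taf1c by 1.1 ± 0.19 (adjusted p = 0.000155), while Taf1d fell by 0.79 ± 0.13 (adjusted p = 0.000126). Of 11 elongation factors and related genes, many of which are known for TOP mRNAs, 2 were higher and 3 lower after 12 h (18.2% and 27.3%) and 3 and 2 after 48 h (27.3% and 18.2%). Tpt1, which encodes the translationally controlled tumour protein, changed by −0.71 ± 0.22 after 48 h (adjusted p = 0.0103) and Naca, a chaperone subunit at the ribosome exit, by −0.43 ± 0.15 (adjusted p = 0.0168). Eef1e1, a component of the tRNA synthetase complex, rose by 1.29 ± 0.14 (adjusted p = 3.7e-06). Of 14 transcripts of the subunits of initiation factor eIF3, 6 were higher and 3 lower after 12 h (42.9% and 21.4%) and 5 and 1 after 48 h (35.7% and 7.14%). Eif3c has 2 listed transcripts, of which that with means of 6541 at 0 h and 9282 for 48 h rose by 0.50 ± 0.09 (adjusted p = 0.000286) and that with means of 17.3 and 109.7 rose by 2.62 ± 0.20 (adjusted p = 1.11e-07), and Eif3k changed by −0.39 ± 0.15 (adjusted p = 0.0315).

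Among 19 regulators of mTORC1 and of ribosomal protein mRNAs, 6 were higher and 4 lower after 12 h (31.6% and 21.1%) and 8 and 5 after 48 h (42.1% and 26.3%). Sesn2, an inhibitor of mTORC1 in amino acid shortage, rose by 2.64 ± 0.22 after 48 h (adjusted p = 2.28e-07), and Eif4ebp1, a translation repressor inactivated by mTORC1, by 1.72 ± 0.08 (adjusted p = 2.19e-09). Tia1, an RNA-binding protein that represses TOP mRNAs, fell by 1.87 ± 0.11 (adjusted p = 1.04e-08), and the sestrins Sesn1 and Sesn3 fell by 1.68 ± 0.14 and 1.78 ± 0.16 (adjusted p = 2.07e-07 and 6.12e-07). Of 11 transcription factors of ribosomal and biogenesis genes, 3 were higher and 4 lower after 12 h (27.3% and 36.4%) and 2 and 7 after 48 h (18.2% and 63.6%). Mycn, a driver of ribosome production, had means of 516 at 0 h and 60.7 after 48 h and fell by 3.12 ± 0.24 (adjusted p = 1.54e-07), and its partner Max rose by 0.96 ± 0.13 (adjusted p = 1.71e-05). Mxd4 and Mxi1, which compete with Myc proteins for Max, fell, with changes of −1.95 ± 0.18 (adjusted p = 7.28e-07) and −1.81 ± 0.18 (adjusted p = 1.5e-06). Myc rose by 1.77 ± 0.42 after 12 h (adjusted p = 0.00276) and changed by 0.28 ± 0.37 by 48 h (adjusted p = 0.507), and it is named here after its values were seen.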

How the data were processed

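RNA-seq libraries (TruSeq RNA) of mDMCs and dental mesenchymal tissue were analysed from 1 deposited table. The authors trimmed adaptors, used bowtie to align reads to the mouse transcriptome (mm10, Ensembl) and RSEM to estimate expression; the submitters' processing notes name version 1.1.21. The authors deposited normalized scores as whole numbers. Although cpm is the label of the table, each library sums to between 21357605 and 21365980, more than that unit can give, and the step that gave all libraries one distribution is not given in the sources used here. Groups came from the sample labels, and 0 columns of the table were left without a sample.

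Of 12089 transcripts 11973 were matched to GENCODE genes (GRCm38, the build called mm10). Near copies were found with blastn 2.17.0 at an identity of at least 95% over at least 80% of the length. Scores of the 14 mDMC libraries were fitted as log2(score + 1), with a mean for each of the 5 time points and an eBayes trend, in limma 3.58.1 under R 4.3.3; log2 changes are on this scale. The tissue was left out of the fit. A transcript had to reach 1 ppm of the summed scores in 2 or more libraries, which left 12079 for the test, and calls used a Benjamini-Hochberg adjusted p below 0.05. Tested on simulated data for 48 h against 0 h with 12079 genes, the step recovered 163 of 200 genes changed by 1.0 on the log2 scale, with 6 false calls. Of 200 changed by 0.5 it recovered 60, with 1 false call. In the data 37.1% of all transcripts were called higher and 34.0% lower at 48 h, far more than were changed in the simulation. The cut-off that adjustment sets depends on that share, so these recovery rates need not hold for the members. Plots were drawn with matplotlib 3.10.9.

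Members and gene lists were chosen with earlier results of these data known. All members were named, with Fau, Rack1 and up to 3 genes per direction of each list with the largest called change at 48 h; not every gene so chosen is printed, and the result of 1 further gene is not reported here. The design had left the unit open, and the scores were tested as log values. No protein sequences were used here. The results were recomputed with a pseudocount of 10, without a filter, with the filter in all 14 libraries, with trimmed-mean scaling and with no trend. Further settings were a fit of the compared time points only, the replicate number as a block, and each library left out in turn. The authors' rule (fold change above 2, p below 0.05 before adjustment) was also used, with limma p-values. Normal scores of ranks were chosen after seeing the data.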

Additional observations from a re-analysis of the deposited data

How the results depend on the processing

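No called change of a member, and no count or median, reversed under the alternatives run. Of the changes that were not called, that of Rplp1 from 12 to 24 h (0.17) was −0.12 without 12 h replicate 1, and that of Rplp2 (0.02) was −0.07 without it and −0.02 without 24 h replicate 2 or 3. The pseudocount of 10, both filters, trimmed-mean scaling, the fit without a trend and the normal scores of ranks (chosen after seeing the data) kept every count of called members within 1.5 times its value. The authors' rule (a fold change above 2) was applied to p-values of the limma fit, whereas the paper used DESeq2. Under it 1 member was lower after 12 h, 0 after 24 h, 0 after 36 h and 0 after 48 h. These stand beside 12.1%, 14.2%, 15.6% and 15.9% of all transcripts. After 48 h 0 were higher, beside 16.2%. With a fit of the compared time points only, 1 member (Rplp1) was higher after 48 h than after 36 h, and Rpsa was also called lower after 24 h (adjusted p = 0.0307). Leaving out each library in turn, the members lower after 12 h numbered 1 to 4, those higher after 24 h 0 to 1, those higher after 48 h 0 to 1, those higher after 24 h than after 12 h 0 to 1, and those lower after 36 h than after 24 h 0 to 1. The member median then ran from −0.91 to −0.33 after 12 h, from −0.58 to −0.33 after 24 h, from −0.32 to 0.0 after 48 h, from 0.10 to 0.44 for 24 h against 12 h, from −0.25 to −0.13 for 36 h against 24 h and from 0.34 to 0.64 for 48 h against 36 h. The count of 1 after 12 h was that without 12 h replicate 1, which leaves a single library assumed to vary like the other groups. Rplp0 was higher after 24 h than after 12 h only without 0 h replicate 3 (adjusted p = 0.0303). Rplp1 after 24 h lost its call in 4 of 14 such fits (without 0 h replicate 1 or 2 or 24 h replicate 1 or 2; adjusted p 0.00767 to 0.0911 over all), and Rplp2 was lower after 36 h than after 24 h in 2 of them. Without Rplp0, the summed shares were 0.414%, 0.271%, 0.308%, 0.262% and 0.387% at 0, 12, 24, 36 and 48 h. The cause of these differences was not tested.

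Replicate numbers were shared by label only. Over 26 pairs of libraries with the same number, the correlation of their deviations from the time point means was −0.24 to 0.32 (median 0.07). Over 52 pairs with different numbers it was −0.48 to 0.48 (median −0.04). Of 14 libraries, 11 had their highest mean correlation with their own number, a weak hint from the data and not the design. With the replicate block, 4 members were lower after 12 h, 4 after 24 h, 4 after 36 h and 1 after 48 h, beside 28.3%, 32.0%, 34.3% and 34.2% of all transcripts, and 1 was higher after 48 h, beside 37.4%. The added call was Rpsa after 24 h (adjusted p = 0.0247).

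The depth of the libraries is unknown, and the coarse steps and the ceiling of high scores limit Rplp0 and Rpsa most.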
